A study of Homo sapiens with 74 samples.

Results

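The globins are the protein chains of haemoglobin, and their 10 functional genes in the human alpha and beta clusters (HBZ, HBM, HBA2, HBA1, HBQ1, HBE1, HBG2, HBG1, HBD and HBB) are described here across erythroleukaemia cells depleted of DOT1L or ENL. They were chosen by gene symbol, as a family named with earlier results of these data known, and all 10 were found among the 28131 genes of the K562 count table and of the HEL count table. HBA2 and HBA1 are near-identical copies, as are HBG2 and HBG1, so reads can be misplaced within a pair and each pair is also given as a sum.

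Haemoglobin is assembled from alpha-like chains of the cluster on chromosome 16 and beta-like chains of the cluster on chromosome 11. In both clusters the genes lie in the order in which they are used during development. HBZ (zeta) and HBE1 (epsilon) are embryonic, HBG2 and HBG1 (gamma) are fetal, and HBD (delta) and HBB (beta) are adult. HBA2 and HBA1 (alpha) give the alpha chains of fetal and adult haemoglobin. HBM (mu) and HBQ1 (theta) are alpha-like genes whose protein function is not established.

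K562 and HEL are established human erythroleukaemia cell lines that make embryonic and fetal globins. DOT1L is the methyltransferase of lysine 79 of histone H3, and ENL, whose gene symbol is MLLT1, is a reader of acetylated histones found in the DOT1L complex. The question was what loss of either protein does to gene expression. Messenger RNA was sequenced in 5 groups: K562 labelled wild type (the K562 control, 2 distinct libraries), K562 labelled DOT1L-/- (DOT1L KO, 3 libraries), K562 labelled ENL-/- (ENL KO, 3 libraries), HEL labelled control (2 libraries) and HEL labelled DOT1L knockdown (DOT1L KD, 2 libraries). The labels give no treatment shared by the groups, no method of knockdown and no word on whether a knockout is a single clone. They also do not say whether replicates were separate cultures, so p-values measure the spread between these libraries, which may be technical. A lane is named for the K562 control and for the DOT1L KO but not for the ENL KO, so a batch of the latter cannot be told apart from its knockout.

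On GRCh38 the alpha cluster runs on the plus strand of chromosome 16, with HBZ at 152855 to 154505, HBM at 165974 to 166768, HBA2 at 172876 to 173710, HBA1 at 176680 to 177522 and HBQ1 at 180334 to 181179. The beta cluster runs on the minus strand of chromosome 11, with HBE1 at 5268350 to 5270143, HBG2 at 5253191 to 5254781, HBG1 at 5248272 to 5249857, HBD at 5232829 to 5234628 and HBB at 5225464 to 5227071. All 10 are protein-coding genes listed with 3 exons each, and all overlapped the RefSeq position of the same symbol.

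RefSeq (GRCh38.p14) promoter sequences of 2 of the 10 globins, HBD and HBM, were used. Only these 2 globins had an entry in the promoter set used, so the pair was not chosen by expression. HBD had the largest relative increase of the globins tested in the DOT1L KO. HBM stayed at or near the limit of detection in every group. Each line holds the 250 bases before the transcription start, 5′ to 3′ on the gene's strand, for HBD the interval chr11:5234484-5234733 on the minus strand and for HBM the interval chr16:165728-165977 on the plus strand. Capitals mark the motifs searched on both strands, which were CCAAT (the element of that name), CACCC (bound by Krüppel-like factors), GATAA (bound by GATA factors) and ATAAA (resembling the TATA element).
HBD: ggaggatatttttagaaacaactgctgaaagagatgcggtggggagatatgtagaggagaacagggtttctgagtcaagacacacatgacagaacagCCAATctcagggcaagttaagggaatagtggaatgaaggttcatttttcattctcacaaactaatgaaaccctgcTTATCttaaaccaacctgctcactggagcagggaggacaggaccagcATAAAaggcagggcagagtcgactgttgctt
HBM: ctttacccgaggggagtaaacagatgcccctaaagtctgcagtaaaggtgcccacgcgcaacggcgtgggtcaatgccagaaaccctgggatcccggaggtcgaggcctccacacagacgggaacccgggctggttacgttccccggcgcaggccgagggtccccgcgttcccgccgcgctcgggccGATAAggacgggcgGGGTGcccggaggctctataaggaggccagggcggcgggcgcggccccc

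The HBD window held CCAAT beginning 153 bases before the start, TTATC, which is GATAA on the other strand, at 78 bases and ATAAA at 31 bases. The HBM window held GATAA at 63 bases and GGGTG, which is CACCC on the other strand, at 49 bases. The motifs found did not overlap each other. GC content was 45.2% in the HBD window and 69.2% in the HBM window, against a median of 58% over all promoters. Of 35116 promoter windows of the same length, 32% held CCAAT, 54.7% CACCC, 20.4% GATAA and 32.7% ATAAA on either strand, so a match is common and is a description only.

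Total counts per library were 15404944 to 29236703 (K562) and 12151495 to 12811688 (HEL). A floor of 3 counts, up to which a count of 0 leaves the level undetermined, was worth 0.101 to 0.244 CPM (counts scaled by library total) depending on the library, and it covers counting error only. All 8 erythroid markers were above that floor in every library. Their summed level was 3110 and 3237 CPM in the K562 control, 3403 to 3557 in the DOT1L KO, with 3207 to 3248 in the ENL KO, and it was 2782 and 2786 CPM in the HEL control and 3505 and 3529 in the KD. Of 6 megakaryocytic markers, 2 were above the floor in K562 and GP1BA was at 0 in all K562 libraries. Their sum was 7.30 and 9.93 CPM in the K562 control, 33.3 to 35 with DOT1L knocked out and 29.4 to 36.9 with ENL knocked out, so it was higher in every knockout library. In HEL all 6 were above the floor, with sums of 2607 and 2660 CPM in the control but 2075 and 2079 in the KD. Summed myeloid markers reached at most 10.6 CPM, highest in the DOT1L KO, and lymphoid markers 2.84 CPM. The 4 epithelial and stromal markers summed to 124 CPM in both K562 controls. The sum was 91.6 to 101 CPM with DOT1L knocked out and 95.2 to 101 with ENL knocked out. It was nearly all EPCAM in the K562 control (120 CPM) and in the ENL KO (94.5 CPM). In the DOT1L KO EPCAM was at 81.8 CPM and COL3A1 at 14.6, against 1.92 for COL3A1 in the control and 0.735 in the ENL KO. KRT5 was at 0, and in HEL the sum was 2.36 to 6.47 CPM. In bulk RNA, fewer cells of a type and less RNA per cell cannot be told apart, and the part of these marker levels in the globin results was not tested. DOT1L RNA fell in the DOT1L KO from 263 to 182 CPM (log2 change -0.53, SE 0.0567) and in the HEL KD from 92.4 to 29.6 CPM (-1.64). MLLT1 RNA fell in the ENL KO from 216 to 154 CPM (-0.48).

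Both lines made mainly embryonic and fetal globin RNA. Levels are compared between genes as CPM per kb, that is, counts scaled to a common library total with TMM factors (edgeR's between-library scaling) and divided by the exonic length listed for the gene. HBG2 was the highest globin in the K562 control at 2943 ± 176 CPM per kb (SD, n = 2), followed by HBZ at 1745 ± 124, HBG1 at 1128 ± 131 and HBE1 at 987 ± 34.8. HBA1 followed at 352 ± 21.6, HBA2 at 235 ± 11.3 and HBQ1 at 44.4 ± 2.82. The adult genes HBD (4.64 ± 1.38) and HBB (0.785 ± 0.168) stood far below, and HBM was last at 0.092 ± 0.0011. Libraries of neighbours in this order did not overlap. The place of HBE1 depends on its length, because its listed exons begin 198 bases before the RefSeq start: counted from that start, HBE1 was at 1304 CPM per kb and above HBG1. HBD and HBQ1 also have listed exons that begin 145 and 125 bases before that start, and those of HBZ begin after it, so their levels per kb are uncertain as well, whereas changes between groups do not use the length.

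In the HEL control the order was HBG2 at 4097 ± 104 CPM per kb (SD, n = 2), HBE1 at 1812 ± 25.3, HBG1 at 956 ± 0.401, HBA1 at 154 ± 12.5, and then HBA2 at 46.6 ± 1.97 with HBB at 46.1 ± 2.63. HBA2 and HBB did not differ beyond their spread, and libraries of all other neighbours in the order did not overlap. HBQ1 followed at 13.8 ± 1.79, HBD at 9.93 ± 0.319 and HBZ at 6.90 ± 1.37, with HBM last at 0.078. HBZ was thus near the top in K562 and near the bottom in HEL, with a level 253-fold higher in the K562 control than in the HEL control. HBB stood the other way, 58.7-fold higher in the HEL control. These ratios have no test, since fragments were counted in K562 and reads in HEL and this cannot be told apart from the cell line.

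At the listed lengths the order differed at a few places in the depleted groups. In the DOT1L KO HBZ came first at 4747 ± 141 CPM per kb (SD, n = 3), above HBG2 at 4419 ± 173, and HBE1 (1729 ± 60.1) stood above HBG1 (1566 ± 95.6), as it also did in the control when counted from the RefSeq start. The gap between HBZ and HBG2 is small, and since the listed HBZ exons begin after the RefSeq start, a longer HBZ would have a lower level per kb, so which of the pair came first is not settled. HBB and HBM, at 0.615 and 0.244 CPM per kb, were not separate there. In the ENL KO HBG2 remained first at 3461 ± 188 CPM per kb (SD, n = 3), followed by HBZ at 2665 ± 186, HBE1 at 2265 ± 47.3 and HBG1 at 1244 ± 72.5. Counted from the RefSeq start HBE1 was at 2990 ± 62.5 and above HBZ. In the HEL KD HBZ moved from the place below HBD to one above HBQ1, at 48.9 ± 0.67 CPM per kb (SD, n = 2), and HBA2 (278 ± 8.27) no longer overlapped HBB (64.4 ± 0.787).

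**Figure D1:**
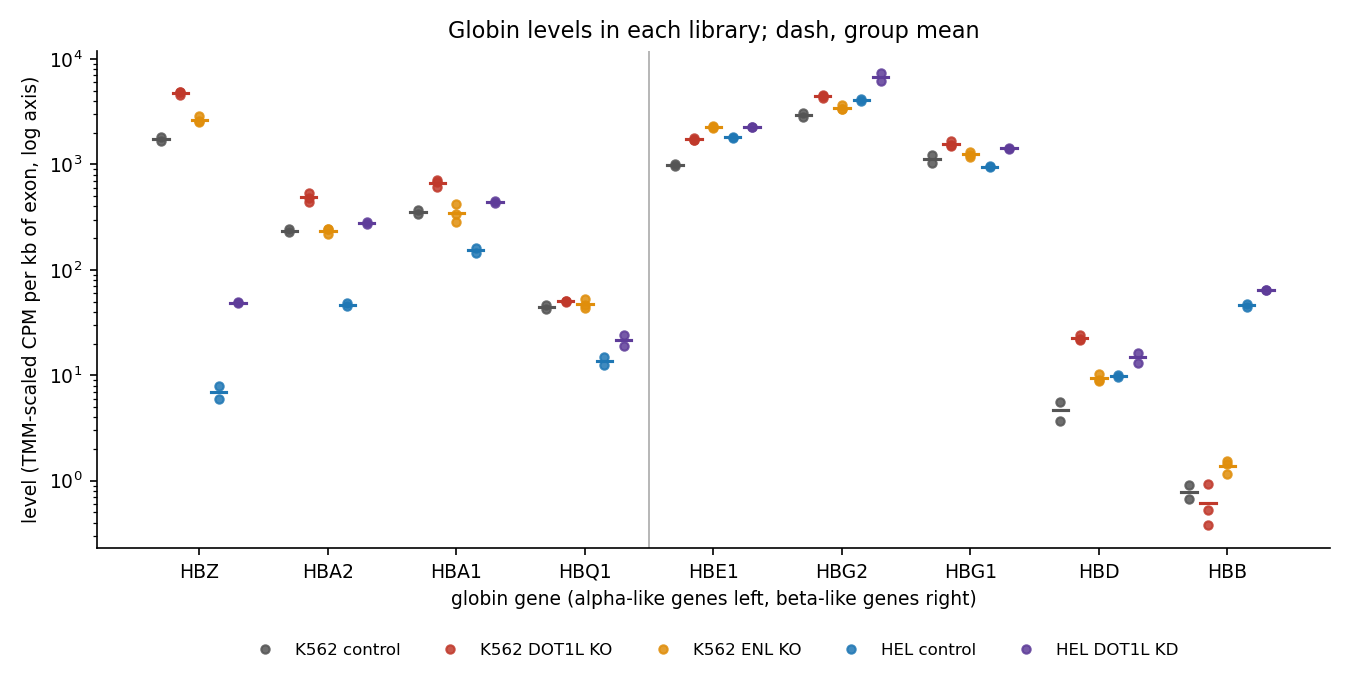
Level of 9 globins in every library, in CPM per kb on a log axis, by group; points are libraries and dashes are group means, and HBM is left out because its counts were at or near the limit of detection. HBZ libraries sit between 1657 and 4832 in K562 and between 5.93 and 49.4 in HEL, and HBB libraries sit between 0.377 and 1.55 in K562 and between 44.2 and 65 in HEL.

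Loss of DOT1L in K562 raised the embryonic, fetal and alpha globins together with HBD, and left HBQ1 and HBB without a change past the threshold. Of the 9 globins that passed the low-count filter, 7 were higher and 0 lower at an adjusted p of at most 0.05 (edgeR's quasi-likelihood test, Benjamini-Hochberg adjustment over 14301 genes). Over all genes tested in that comparison 51.1% were called, 26.9% higher and 24.2% lower. All DOT1L KO libraries lay above all controls in 8 globins and below them in 0, which was the case for 35.2% and 32.8% of all genes. The median log2 fold change was 0.81 over the 9 globins and 0.01 over all genes. HBM was not tested.

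In the alpha cluster HBZ had the largest change. HBZ stood at 1657 and 1833 CPM per kb in the K562 controls and at 4584, 4824 and 4832 in the DOT1L KO. Every DOT1L KO library lay above both controls, a 2.72-fold increase (log2 1.44, SE 0.0677, adjusted p = 1.27e-09). HBA1 and HBA2, the alpha chains of fetal and adult haemoglobin, together stood at 563 and 610 CPM per kb in the controls and at 1051, 1193 and 1220 in the DOT1L KO. The libraries of both groups did not overlap, and the sum rose 1.97-fold (log2 0.98, SE 0.1, adjusted p = 2.66e-06), with log2 changes of 1.06 for HBA2 and 0.92 for HBA1. HBQ1 stood at 42.4 and 46.4 CPM per kb in the controls and at 50.4, 50 and 50.2 in the DOT1L KO. All KO libraries were higher, but the log2 difference of 0.18 (95% interval -0.01 to 0.37, adjusted p = 0.110) missed the threshold. It passed with scaling by library size alone (0.22, adjusted p = 0.0469). HBM had 1 and 1 counts in the controls and 3, 0 and 5 in the DOT1L KO, which is at the limit of detection.

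In the beta cluster the embryonic gene HBE1 stood at 963 and 1012 CPM per kb in the controls and at 1690, 1798 and 1700 in the DOT1L KO. The groups did not overlap, and HBE1 rose 1.75-fold (log2 0.81, SE 0.0524, adjusted p = 2.70e-08). The fetal pair HBG1 and HBG2 together stood at 3854 and 4288 CPM per kb in the controls and at 5958, 6256 and 5740 in the DOT1L KO. Their sum, the largest globin signal by level, rose 1.47-fold (log2 0.56, SE 0.0612, adjusted p = 5.20e-06). HBG2 rose by 0.59 and HBG1 by 0.47 on the log2 scale. HBD, the minor adult beta-like chain, had 61 and 92 counts in the controls and 369, 548 and 359 in the DOT1L KO, or 3.66 and 5.62 against 21.7, 23.9 and 22 CPM per kb. Its 4.86-fold increase (log2 2.28, SE 0.153, adjusted p = 3.90e-08) was the largest relative change of the 9 globins tested, from a level far below that of the fetal pair. HBB, the main adult chain, had 9 and 12 counts in the controls and 13, 7 and 7 in the DOT1L KO. These libraries overlapped, and the log2 difference of -0.39 had a 95% interval from -1.38 to 0.59 (adjusted p = 0.501), so neither a rise nor a fall of HBB was detectable at this depth.

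**Figure D2:**
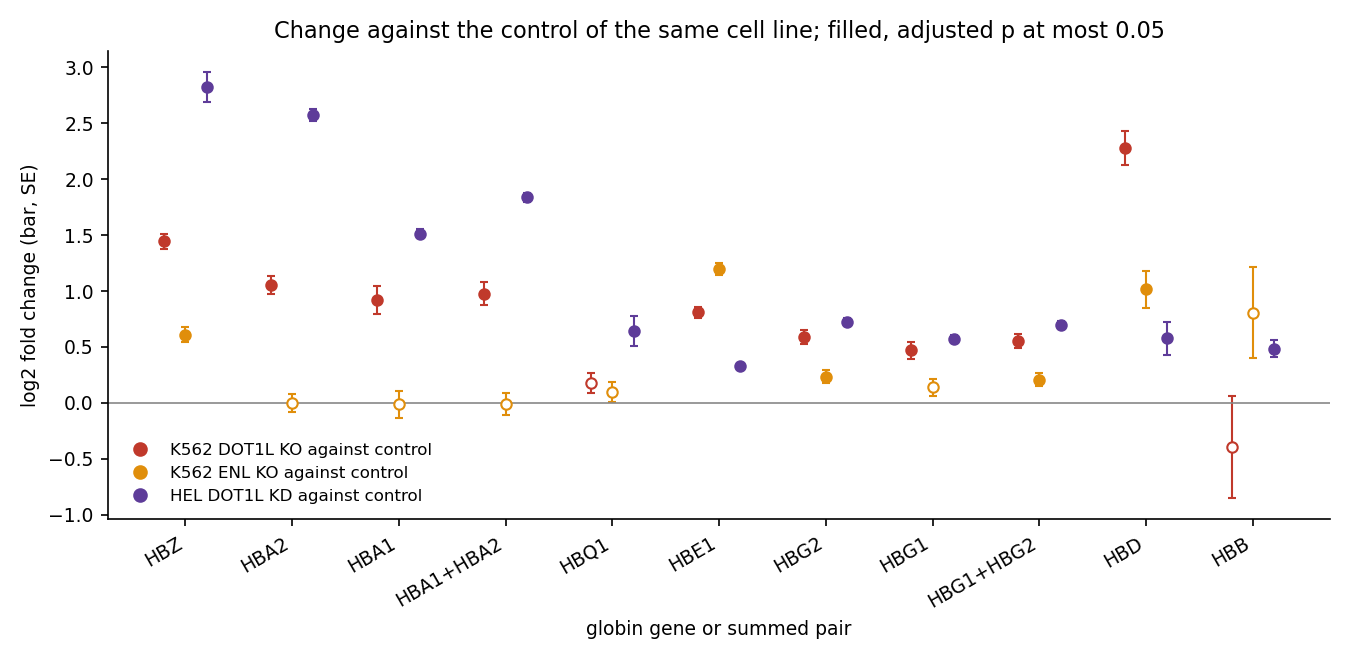
Log2 fold change against the control of the same cell line (points) with its standard error (bars) for 9 globins and the sums of the alpha and gamma pairs, in the K562 DOT1L KO, the K562 ENL KO and the HEL DOT1L KD; filled points passed an adjusted p of 0.05. The embryonic HBZ is at 1.44, 0.61 and 2.82 in the 3 comparisons, and the alpha pair is at 0.98, -0.01 and 1.84.

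Loss of ENL in K562 raised a smaller number of globins, with HBE1 first and no rise of the alpha pair past the threshold. HBZ, HBE1, HBG2 and HBD were higher, which is 4 of the 9 tested, and 0 were lower (edgeR's quasi-likelihood test). Of all 14301 genes tested, 41% were called, 18.8% higher and 22.2% lower. All ENL KO libraries lay above all controls in 5 of the 9 globins and below them in 0, against 28.8% and 30.8% of all genes. The median log2 fold change was 0.23 over the globins and 0.00 over all genes. The ENL KO and the DOT1L KO were compared with the same 2 control libraries, so both comparisons share any deviation of those controls.

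HBE1 stood at 2211, 2285 and 2298 CPM per kb in the ENL KO, all above both controls. Its increase was 2.29-fold (log2 1.20, SE 0.0531, adjusted p = 1.24e-09). HBZ stood at 2609, 2872 and 2512 CPM per kb, above both controls, with a 1.53-fold increase (log2 0.61, SE 0.0657, adjusted p = 6.36e-06). The embryonic genes of both clusters were therefore higher in all 3 ENL KO libraries. HBD had 143, 143 and 123 counts (8.92, 8.99 and 10.4 CPM per kb), a 2.02-fold increase (log2 1.01, SE 0.167, adjusted p = 0.000284). HBG1 and HBG2 together stood at 4895, 4695 and 4525 CPM per kb, above the controls by 1.16-fold (log2 0.21, SE 0.0606, adjusted p = 0.0138). This small change rested on control library 1: without it the sum was at 0.13 (adjusted p = 0.191) and HBG2 alone at 0.17 (adjusted p = 0.107), down from 0.23. HBG1 alone was at 0.14 (adjusted p = 0.157), and without control library 2 it passed the threshold at 0.27 (adjusted p = 0.0333).

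HBA1 and HBA2 together stood at 502, 668 and 578 CPM per kb in the ENL KO, on both sides of the controls at 563 and 610. The log2 difference was -0.01 with a 95% interval from -0.22 to 0.20 (adjusted p = 0.953), an interval that lies below the 0.98 measured in the DOT1L KO. HBQ1 stood at 46.2, 52.5 and 43.3 CPM per kb and overlapped the controls (log2 0.10, adjusted p = 0.420). HBB had 15, 20 and 14 counts, all above the controls when scaled to CPM, but at these counts the log2 difference of 0.81 (SE 0.408) missed the threshold (adjusted p = 0.134). HBM had 4, 3 and 1 counts.

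The knockouts differed from each other in most globins. Tested directly, 6 of the 9 globins were higher in the DOT1L KO than in the ENL KO, and HBE1 and HBB were lower, where 60.2% of all genes tested were called. For these 8 globins the libraries of the knockouts did not overlap, 6 above and 2 below, against 33.5% above and 29.8% below over all genes. The alpha pair was 1.98-fold higher in the DOT1L KO (log2 0.99, SE 0.088, adjusted p = 4.02e-07), HBZ 1.78-fold (0.83, adjusted p = 3.14e-08), HBD 2.40-fold (1.27) and the gamma pair 1.27-fold (0.35, adjusted p = 8.46e-05). HBE1 stood the other way, with all DOT1L KO libraries below all ENL KO libraries (log2 -0.39, SE 0.0457, adjusted p = 6.23e-06). HBB was also lower in the DOT1L KO (-1.20, SE 0.373, adjusted p = 0.0132), with 7 to 13 counts against 14 to 20. That HBB result did not pass without DOT1L KO library 2 (-0.89, adjusted p = 0.0674) or without ENL KO library 2 (-1.10, adjusted p = 0.0520). HBQ1 was at 0.08 (95% interval -0.09 to 0.25).

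DOT1L knockdown in HEL raised all 9 globins tested, with HBZ, HBA2 and HBA1 ahead of the rest. Against this, 55% of the 12635 genes tested in HEL were called, 27% higher and 28% lower. Both KD libraries lay above both controls in all 9 globins, as in 38.7% of all genes, while 37.2% of all genes lay below. The median log2 fold change was 0.64 over the globins and 0.01 over all genes. With scaling on the upper quartile, 61.4% of the called genes were higher, compared with 49.1% with TMM factors, and all 9 globins remained higher.

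HBZ had 58 and 44 counts in the HEL controls, compared with 366 and 351 in the KD, or 7.87 and 5.93 against 49.4 and 48.5 CPM per kb. The embryonic alpha-like gene thus rose 7.08-fold (log2 2.82, SE 0.133, adjusted p = 9.25e-25) to a level that was still below that of K562. HBA1 and HBA2 together stood at 211 and 190 CPM per kb in the controls but at 722 and 712 in the KD. Their sum rose 3.57-fold (log2 1.84, SE 0.0382, adjusted p = 1.98e-40). The copies moved unequally: HBA2 went from 48 and 45.2 to 272 and 283 CPM per kb (log2 2.57) and HBA1 from 163 and 145 to 450 and 429 (1.51). Reads of these copies can be assigned to the wrong one, so the sum is the firmer value. HBQ1 rose from 15 and 12.5 to 19 and 24 CPM per kb (log2 0.64, SE 0.136, adjusted p = 7.31e-05). HBM had 0 and 1 counts in the controls, compared with 0 and 2 in the KD.

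Among the beta-like genes of HEL, HBE1 stood at 1794 and 1830 CPM per kb in the controls and at 2277 and 2272 in the KD. It rose 1.26-fold (log2 0.33, SE 0.0265, adjusted p = 1.56e-15), the smallest change of the 9. The gamma pair stood at 4979 and 5127 CPM per kb in the controls but at 7623 and 8755 in the KD, a 1.62-fold increase (log2 0.70, SE 0.0329, adjusted p = 6.91e-25). HBB, with 377 and 350 counts in the controls against 513 and 493 in the KD, rose 1.40-fold (log2 0.48, SE 0.076, adjusted p = 3.48e-07). HBD had 94 and 99 counts in the controls against 160 and 125 in the KD, a rise of 0.58 on the log2 scale (SE 0.145, adjusted p = 0.000670). Without KD library 1 the HBD change was 0.40 and missed the threshold (adjusted p = 0.0595).

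The response to DOT1L depletion differed between the lines for 6 of 9 globins, tested as an interaction of cell line and depletion in a joint fit in which 38.9% of 15367 genes were called, 19.8% with a higher and 19.1% with a lower change in HEL. The alpha-like genes rose more in HEL: the difference in log2 change, HEL minus K562, was 1.40 for HBZ, 1.54 for HBA2, 0.61 for HBA1, 0.88 for the alpha pair and 0.48 for HBQ1. The HBQ1 difference missed the threshold when K562 control library 2 (0.42, adjusted p = 0.0720), HEL control library 2 (0.35, adjusted p = 0.180) or HEL KD library 2 (0.30, adjusted p = 0.231) was left out. HBE1 and HBD rose less in HEL, by 0.46 and 1.69 on the log2 scale (adjusted p = 7.94e-06 and 4.20e-06 in edgeR's quasi-likelihood test). The gamma pair did not differ past the threshold (0.16, 95% interval -0.02 to 0.34, adjusted p = 0.146), nor did HBB (0.90, 95% interval 0.01 to 1.79, adjusted p = 0.105). Without HEL KD library 1 the gamma pair passed at 0.26 (adjusted p = 0.0330), as did HBB without DOT1L KO library 1 at 1.33 (adjusted p = 0.0208). Knockdown against knockout and read against fragment counting go together with the cell line here and cannot be told apart from it.

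Globin RNA as a share of all counts was 0.453% ± 0.0285 (SD, n = 2) in the K562 control, 0.859% ± 0.0233 (n = 3) with DOT1L knocked out and 0.644% ± 0.0128 (n = 3) with ENL knocked out. In HEL it was 0.453% ± 0.00463 (n = 2) in the control and 0.722% ± 0.0466 (n = 2) in the KD. The depleted libraries did not overlap their controls, and the widest 95% Wilson interval of a single library was ± 0.00487 percentage points. No test was run on these shares or on the ratios below, which restate the same counts.

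The summed alpha-like level relative to the summed beta-like level, both in CPM per kb, was 0.469 and 0.469 in the K562 controls and 0.741 to 0.818 in the DOT1L KO. In the ENL KO the ratio was 0.444 to 0.514, on both sides of the controls, while alpha-like and beta-like sums were both higher than in every control (1.39-fold and 1.38-fold in the means). In HEL the ratio was 0.0298 and 0.0342 in the control and 0.0707 and 0.0792 in the KD, so beta-like RNA dominated in every HEL library. With the lengths of HBE1, HBD and HBQ1 counted from the RefSeq start, and that of HBZ as listed, the group ratios were 0.443, 0.720 and 0.429 in the K562 control, DOT1L KO and ENL KO, and 0.0300 and 0.0705 in the HEL control and KD.

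Within the alpha-like sum HBZ made up 73.4% in the K562 control, 79.8% in the DOT1L KO and 80.9% with ENL knocked out. It made up 3.10% in the HEL control and 6.21% in the KD, where the alpha pair held 91% of the alpha-like sum. Within the beta-like sum HBE1 made up 19.5% in the K562 control, 22.4% in the DOT1L KO and 32.5% with ENL knocked out, and the gamma pair held the rest but for at most 0.301% from HBD and HBB. In HEL the HBE1 share went the other way, from 26.2% in the control to 21.6% in the KD, with no overlap. HBD and HBB together were 0.810% of the beta-like sum in the HEL control and 0.754% in the KD, and these libraries overlapped.

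**Figure D3:**
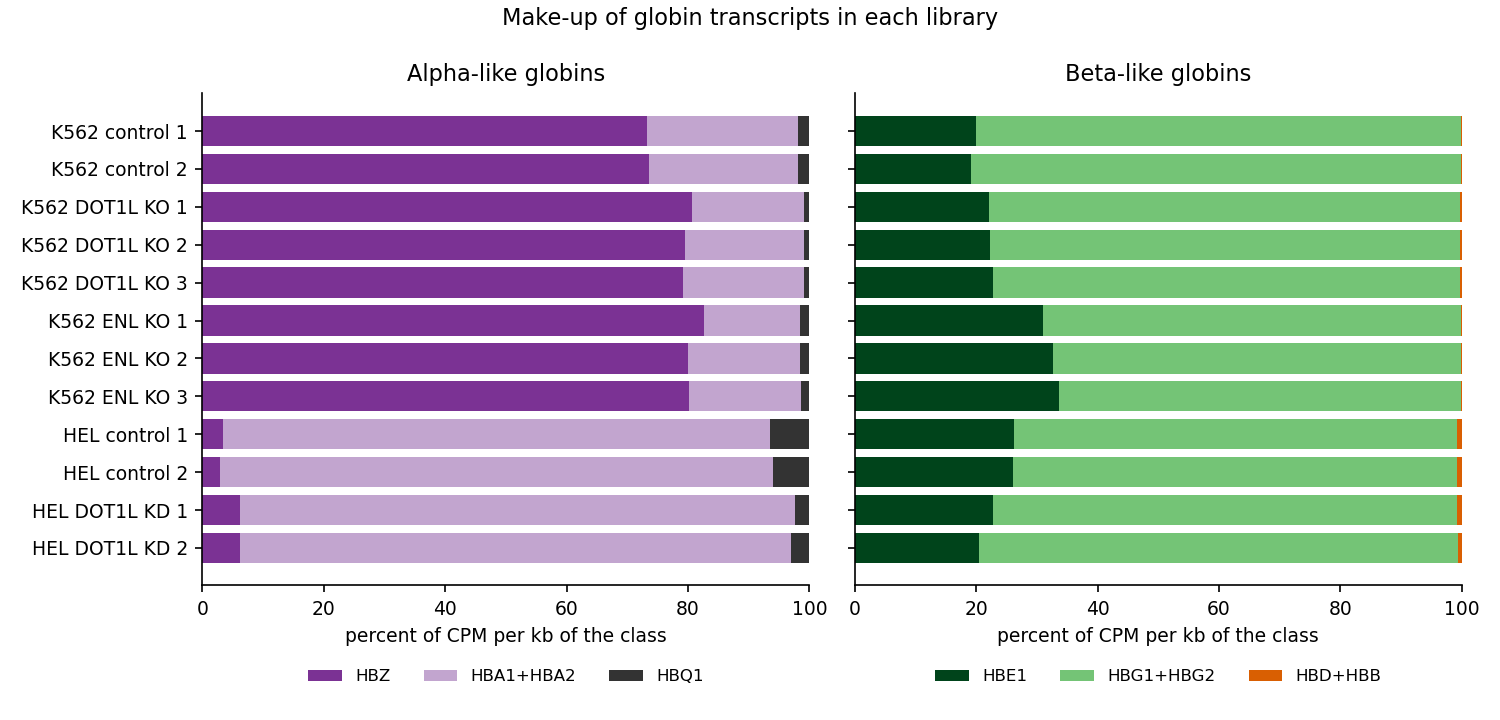
Share of each gene or pair in the alpha-like sum (HBZ, HBA1 with HBA2, HBQ1) and in the beta-like sum (HBE1, HBG1 with HBG2, HBD with HBB) of every library, in percent of CPM per kb, as stacked bars from 0 to 100. HBZ is the larger part of the alpha-like sum in all K562 libraries and the alpha pair in all HEL libraries, and the HBE1 part of the beta-like sum is largest in the ENL KO, at 31.1% to 33.6%.

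Between the near-identical copies, HBG2 held 72.3% of the gamma counts in the K562 control, 73.8% in the DOT1L KO, 73.5% in the ENL KO, 81.1% in the HEL control and 82.5% in the KD. The gamma copies thus kept nearly the same proportion within each line. HBA1 held 60% of the alpha-pair counts in the K562 control, 57.8% in the DOT1L KO and 59.4% with ENL knocked out. In HEL it held 76.8% in the control but 61.3% in the KD, and these libraries did not overlap. The widest 95% Wilson interval of a single library was ± 2.24 percentage points, which covers counting error only. Libraries of the ENL KO spread more widely, from 56.6% to 63.5%.

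Among the genes next to the globins 3 were called in each comparison with a control. Of 8 genes of the globin loci (6 coding genes near the alpha cluster, the beta-globin pseudogene HBBP1 and the non-coding BGLT3 that lies near HBG1), 2 were higher and 1 lower in the DOT1L KO, 3 higher and 0 lower in the ENL KO, and 3 higher and 0 lower in HEL, where 51.1%, 41% and 55% of all genes were called. HBBP1, between HBG1 and HBD, had 17 and 17.7 CPM in the K562 controls and 8.90, 9.70 and 10.3 in the DOT1L KO. HBBP1 thus fell by 0.85 on the log2 scale (SE 0.0971, adjusted p = 7.46e-06) while HBG1 and HBD on either side rose. It was at -0.03 in the ENL KO (adjusted p = 0.816) and at 0.04 in HEL (adjusted p = 0.321).

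BGLT3 had 4.09 and 4.59 CPM in the K562 controls and 6.95, 6.93 and 8.76 in the DOT1L KO, a rise of 0.79 on the log2 scale (adjusted p = 0.000597). It was at -0.24 in the ENL KO (adjusted p = 0.279) and at 0.62 in HEL (adjusted p = 0.0384), where libraries overlapped. NPRL3, whose introns hold the main enhancers of the alpha cluster, was higher by 0.20 in the DOT1L KO (adjusted p = 0.00594) and by 0.23 where ENL was lost (adjusted p = 0.00315), and was at 0.06 in HEL (adjusted p = 0.328). MPG was at 0.14, 0.19 and 0.37 in the DOT1L KO, ENL KO and HEL KD, and SNRNP25 at 0.16, 0.20 and 0.38; both passed the threshold in the ENL KO and in HEL. RHBDF1, POLR3K and LUC7L did not pass it in any of the 3. The other globin-family genes MB, CYGB, NGB and ADGB had too few counts to be tested in either line.

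**Figure D4:**
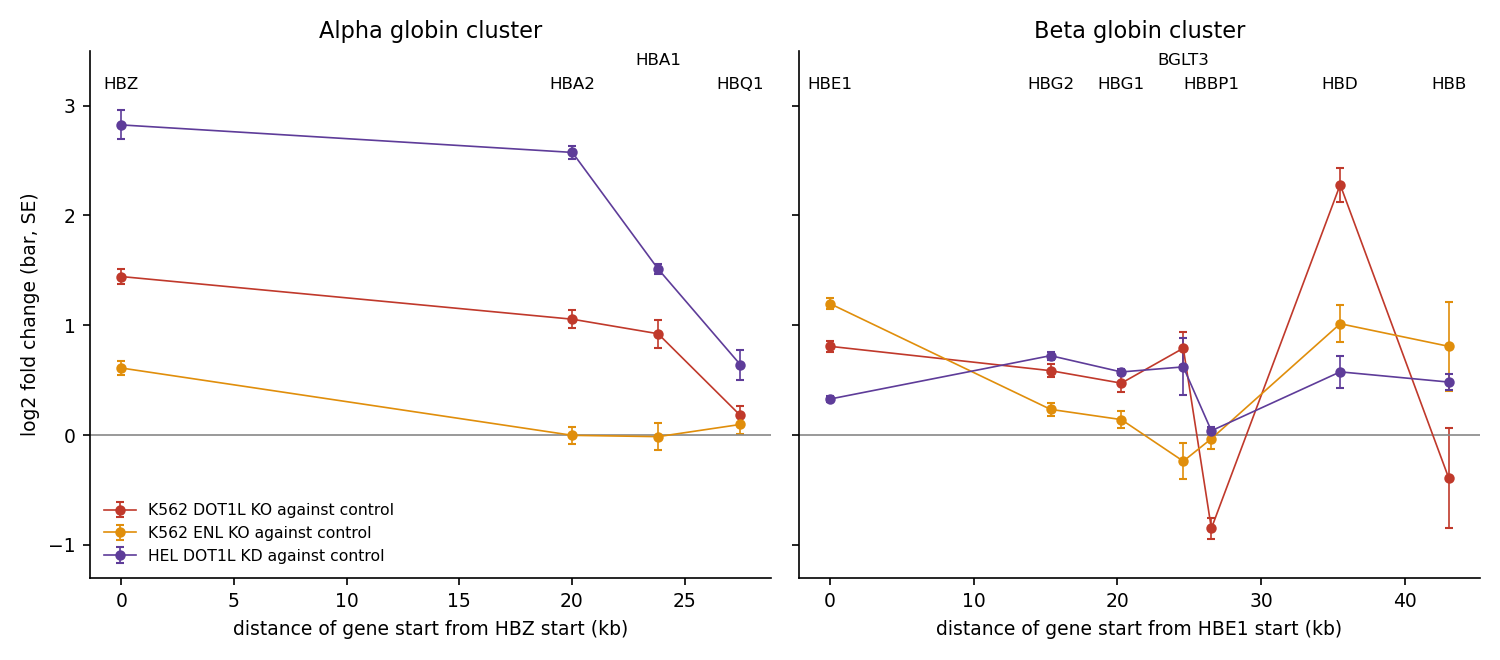
Log2 fold change against the control (vertical axis, with its standard error) at the distance of each gene's start from the start of HBZ in the alpha cluster or of HBE1 in the beta cluster (horizontal axis, kb), in the 3 comparisons; HBBP1 and BGLT3 are included. In the DOT1L KO the beta cluster holds HBBP1 at -0.85 between BGLT3 at 0.79 and HBD at 2.28.

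A list of haem and globin-assembly genes, which also holds the haem-breakdown genes HMOX1 and BLVRB, the haem-sensing kinase EIF2AK1 and the peroxidase PRDX2, had more higher than lower calls. Of 15 tested, 11 were higher and 0 lower in the DOT1L KO (median log2 change 0.57), and 12 were higher and 0 lower in the ENL KO (0.39). In HEL 11 of 16 were higher and 1 lower (0.25). Over all genes 26.9%, 18.8% and 27% were higher, with medians of 0.01, 0.00 and 0.01. AHSP, the chaperone of free alpha chains, had 3.25 and 4.30 CPM in the K562 controls. It had 9.81, 12.7 and 10.7 CPM without DOT1L but 28.2, 36 and 35.8 without ENL, so the groups did not overlap. AHSP rose by 1.56 on the log2 scale in the DOT1L KO (adjusted p = 6.76e-06) and by 3.14 where ENL was knocked out (adjusted p = 6.92e-09), the knockout in which the alpha pair itself did not pass the threshold. In HEL AHSP had 1 and 0 counts in the controls against 55 and 38 in the KD, at least 15.6-fold higher than the mean level that 3 counts per control library would give. PPOX, an enzyme of haem synthesis, rose by 1.91, 0.81 and 1.34 in the DOT1L KO, ENL KO and HEL KD. ALAS2, the first enzyme of haem synthesis in red cells, which was picked after its values were seen, rose by 2.67, 1.51 and 0.13.

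Known regulators of the globin clusters were called in both directions. Of 28 tested in K562, 10 were higher and 11 lower in the DOT1L KO (median 0.00), and 8 were higher and 8 lower in the ENL KO (0.04). In HEL 9 of 27 were higher and 7 lower (-0.02). Over all genes 51.1%, 41% and 55% were called in either direction. GATA2, an early haematopoietic factor, fell by 0.70, 0.67 and 0.26 on the log2 scale in the DOT1L KO, ENL KO and HEL KD, and MYB, a factor of proliferating progenitors, fell by 0.50, 0.59 and 0.87 (all past the threshold). Other regulators are named here after their values were seen. The erythroid factor KLF1 rose by 0.72, 0.43 and 0.13, and LIN28B, an RNA-binding protein of fetal cells, fell by 0.21, 0.24 and 0.28. BCL11A, a repressor of the gamma genes, was too low to be tested in K562 and was at 4.54 CPM in the HEL control and 3.74 in the KD (log2 -0.28, adjusted p = 0.269). NFIX fell by 1.53, 0.24 and 1.10. Others went opposite ways in the lines. ZBTB7A fell by 0.44 in the DOT1L KO, was at 0.04 in the ENL KO and rose by 0.46 in HEL. IGF2BP3, NFIA and LMO2 also fell past the threshold in the DOT1L KO and rose past it in HEL. LDB1 rose by 0.25 in the DOT1L KO and fell by 0.14 in HEL.

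The genes most like the main globins over the 8 K562 libraries were found by Pearson's r of log2 CPM among 9112 genes with a mean of at least 10 CPM. For HBZ these were LTBP1 (r = 0.998), MARVELD1 (0.998) and SFRP2 (0.997). For the alpha pair they were TMEM198B (0.991), PPARA (0.990), ATRN (0.988) and TP53INP1 (0.988). For the gamma pair they were NCALD (0.992), RHD (0.990), CYB561A3 (0.987) and SLC25A44 (0.986), and for HBE1 they were ZNF45 (0.996), ENDOD1 (0.996), DMTN (0.995) and SCPEP1 (0.995). RHD, named for the gamma pair, and DMTN, named for HBE1, encode a blood group antigen and a membrane skeleton protein of red cells. They are a pick from the genes named, and neither is among those named for HBZ or the alpha pair. These r values describe 8 libraries in 3 groups, so the differences between the groups set most of each of them, and they carry no p.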

How the data were processed

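Counts per gene were used as the authors deposited them: fragments (read pairs) for K562 and reads for HEL, with exon positions and exonic length per gene, per the file headers. The submitters' processing notes name fastp 0.13.1, HISAT2 2.1.0, Bowtie2 2.3.4.1, featureCounts 1.6.1 and builds hg38 and hg19. Which of these made the tables, and whether strand was used in counting, is not given in the sources used here, so reads of overlapping or antisense genes cannot be told apart. Positions matched GRCh38.

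K562 control columns 2 and 3 held identical counts in every gene and were counted as 1 library, so 12 of 13 libraries were used. Chi-square divided by its degrees of freedom was 4.05 to 9.64 for the other K562 replicate pairs and 1.31 and 1.45 for the HEL pairs, so HEL replicates differed little beyond counting noise and the HEL p-values rest on that small spread. The other 61 samples of the series were not analysed here.

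Genes were filtered with filterByExpr (minimum count 10, minimum total 15), scaled with TMM and tested with edgeR 4.0.16 (quasi-likelihood F test, R 4.3.3), with 1 fit per line and a joint fit of the 9 control and DOT1L-depleted libraries for the interaction. P-values were adjusted by Benjamini-Hochberg over all genes tested, with a threshold of 0.05. Pair sums were tested in separate fits in which each sum replaced the rows of both copies. Standard errors come from the F statistic. Alternatives were other scalings, no filter, DESeq2 1.42.0, omission of each library and a replicate block. On simulated data with K562 sizes, 71 of 100 changes of 0.5 and 95 of 100 of 1 on the log2 scale were found, with 7 false calls. Only these genes of 13898 were changed, a far smaller share than was called in the data. The simulated counts also followed the kind of model that was fitted, so these rates may not hold for the data.

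The globins and gene lists were chosen with earlier results of these data known. All globins, all genes of the loci list, AHSP, the 2 genes of each other list with the smallest maximum adjusted p over the 3 comparisons with a control and the 4 genes most like a globin are named, except for 1 item that is not reported here.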

Additional observations from a re-analysis of the deposited data

Results flagged for a closer look

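The change under DOT1L depletion differed between HEL and K562 by a test of the difference itself (edgeR's quasi-likelihood test of the interaction) for 6 globins and 1 pair. The difference in log2 change, HEL minus K562, was 1.40 for HBZ (adjusted p = 9.30e-08), 1.54 for HBA2 (3.32e-10), 0.61 for HBA1 (3.25e-05) and 0.88 for the alpha pair (1.11e-07). It was 0.48 for HBQ1 (0.0244), which did not pass in 3 of the fits with a library left out. For HBE1 it was -0.46 (7.94e-06) and for HBD -1.69 (4.20e-06). Of all 15367 genes tested this way 38.9% were called. The parts of cell line, method of depletion and kind of count in these differences cannot be told apart.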

How the results depend on the processing

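The number of globins past the threshold stayed within 1.5 times its main value in all 80 alternative counts (5 comparisons), and 855 of the alternative fold changes kept their direction and side of the threshold. The 7 that changed sign were all of the alpha genes in the ENL KO with a library left out: HBA2 ranged from -0.050 to 0.049, HBA1 from -0.19 to 0.12 and their sum from -0.13 to 0.089 on the log2 scale. With a library left out the gamma pair was at 0.13 to 0.28 in the ENL KO, and its difference between lines at 0.056 to 0.26. The other 18 that crossed the threshold are named beside their results, except for HBG2 (0.27 without HEL KD library 1) and HBG1 (0.25 without K562 control library 1), which then passed in the interaction, and those under the block.

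Replicates carry the same numbers across groups, and the numbers paired the libraries in part. Deviations of same-numbered K562 libraries correlated at 0.0876 to 0.683. Those numbered 1 went together (0.464, 0.486 and 0.683) and correlated at -0.584 to -0.105 with other numbers. Numbers 2 and 3 were not separated: control library 2 was closer to ENL KO library 3 (0.421) than to ENL KO library 2 (0.105). Same-numbered HEL libraries gave -0.0509. The main fits did not use the numbers. With the replicate block, 8 of 9 globins passed in the DOT1L KO (HBQ1 at 0.20 added), 5 in the ENL KO (HBG1 at 0.17 added), 8 between knockouts, 9 in HEL and 7 in the interaction (HBG2 at 0.12 added; gamma pair 0.13). With the shared control column numbered 3 instead of 2, an alternative added after seeing the data, the block gave 7 in the DOT1L KO but 4 with ENL knocked out, so neither added call held. DESeq2 called 4561 genes in HEL against 6951.

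HBB in K562 (7 to 20 counts) and HBM (0 to 5 counts) were limited by depth.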
